A study of Rattus norvegicus with 17 samples.

Results

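The kidney takes up amino acids from the filtrate in the proximal tubule and holds a large set of enzymes that break them down, make others, or pass their carbon and nitrogen to glucose, ammonia, creatine and arginine. Enzymes of this kind are a major part of what marks a proximal tubule cell in a healthy kidney. A set of 56 genes for these enzymes was named by symbol, and 36 of them were found among the 23487 genes of the deposited count tables. They were chosen by earlier results of these data, since a symbol could be paired with a gene identifier only through the part that was used of the study's lists of changed transcripts, ordered by p-value. Of the 36, 28 were paired through the list of study 1, which used other rats, and 8 (Dmgdh, Sardh, Fah, Gstz1, Glud1, Ahcy, Mat2a and Mut) also through the list of study 2, to which the rats below belong. The comparison of operated with control rats is therefore given for the members as a description without a test. The other 20 named genes had no identifier in those lists and were not analysed here: Bhmt, Hpd, Agxt, Aldh4a1, Prodh, Pycr1, Oat, Asl, Arg2, Got1, Shmt1, Cth, Mccc2, Auh, Hibch, Pccb, Haao, Tdo2, Aadat and Cdo1.

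The libraries came from whole kidney tissue of 12 rats after sub-total nephrectomy (SNx) and 5 rats labelled NoOp, 1 library per rat. The animals were male Wistar Han rats with no transgene or drug named for either group, and their age was not given in the sources used here. In SNx, part of the right kidney was cut away and the left kidney was removed in a later operation, so that the remnant fails over the following weeks. The labels call the controls NoOp, while the study's methods describe the controls of study 2 as sham-operated. Rats were killed when proteinuria or serum creatinine passed a set level. By the study's account most of the SNx rats of study 2 did not reach it, and the labels tell neither which of the 12 did nor the time after surgery, so that the SNx mean and spread can cover rats on both sides of that level. Libraries kept the strand and were made after removal of ribosomal RNA, and they were sequenced as read pairs. The SNx libraries held between 19210434 and 30784070 counts and the controls between 30454170 and 43876369, so that each SNx library but 1 was shallower than every control. SNx 1 stood apart, with the smallest total and a Col3a1 level of 11.52 log2 CPM (counts scaled to a common library size) against 8.62 to 10.05 in the other SNx libraries. The study's methods give RNA integrity only as a wide range over all samples, which reaches down to low values. It was not given per library, so its part in the spread between libraries was not tested. Levels below are log2 CPM after scaling by the trimmed mean of M values (TMM).

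By the labels both groups are kidney, and the tubule enzymes and markers below were present in every library. Of 22 proximal tubule markers, 20 had an identifier, 17 were lower and 1 (Slc2a2) higher in SNx, and none was at 0 in any library. Their summed level was 1830 to 19934 CPM in SNx and 28287 to 36450 CPM in NoOp. Markers of fibroblasts, leukocytes and tubule injury moved the other way. Of 11 fibroblast and matrix genes 6 had an identifier, and all 6 were higher, at a summed 1905 to 12204 CPM against 579 to 676. Of 16 leukocyte genes 13 had one and were higher too, at 311 to 817 CPM against 117 to 177. So were the 7 of 10 injured tubule genes that had one, at 3410 to 17411 CPM against 596 to 885. Of the other tubule segments only 3 of 15 markers had an identifier, 2 of them lower, and of glomerulus and endothelium 2 of 10, both lower. Identifiers came only from the study's lists of changed transcripts. Of all tested genes with a symbol, 40.5% were lower and 53.4% higher at FDR < 0.05. Because the tissue was sequenced in bulk, fewer cells of a type and less RNA per cell cannot be told apart in any of the values that follow.

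Of the 36 enzymes, 35 were lower in SNx and 1, the asparagine synthetase gene Asns, was higher. The share of all 15438 genes tested that was called lower at FDR < 0.05 (edgeR's quasi-likelihood test) was 27.7%, and the share called higher was 30.3%. Among the 2003 tested genes that had a symbol these shares were 40.5% and 53.4%. Since the same contrast took part in the choice of members, their count is given beside these shares and nothing is read from it. The median log2 fold change (SNx over NoOp) was -1.36 over the members and 0.02 over all genes. Among the 35 lower enzymes it ran from -0.90 for Pcca to -2.13 for Dmgdh, and 30 of them were below -1. In 22 of the 35, every SNx library lay below every NoOp library, as it did in 9.6% of all genes. For Asns every SNx library lay above every NoOp library, as in 13.5% of all genes. Without TMM scaling, by library size alone, the median of all genes moved from 0.02 to 0.23 and the share of all calls that were higher from 52.2% to 74.6%. All 35 lower enzymes and Asns kept their direction when SNx 1 was left out. The sample numbers in the titles form 2 ranges. The lower one held 6 SNx and all 5 NoOp libraries, so the other SNx libraries had no control in their own range. What the ranges stand for is not given by the labels. With the lower range alone the fold change was -2.36 for Dmgdh and -1.98 for Acmsd, further from 0 than with all libraries, and -1.22 for Phgdh, nearer to 0.

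**Figure D1:**
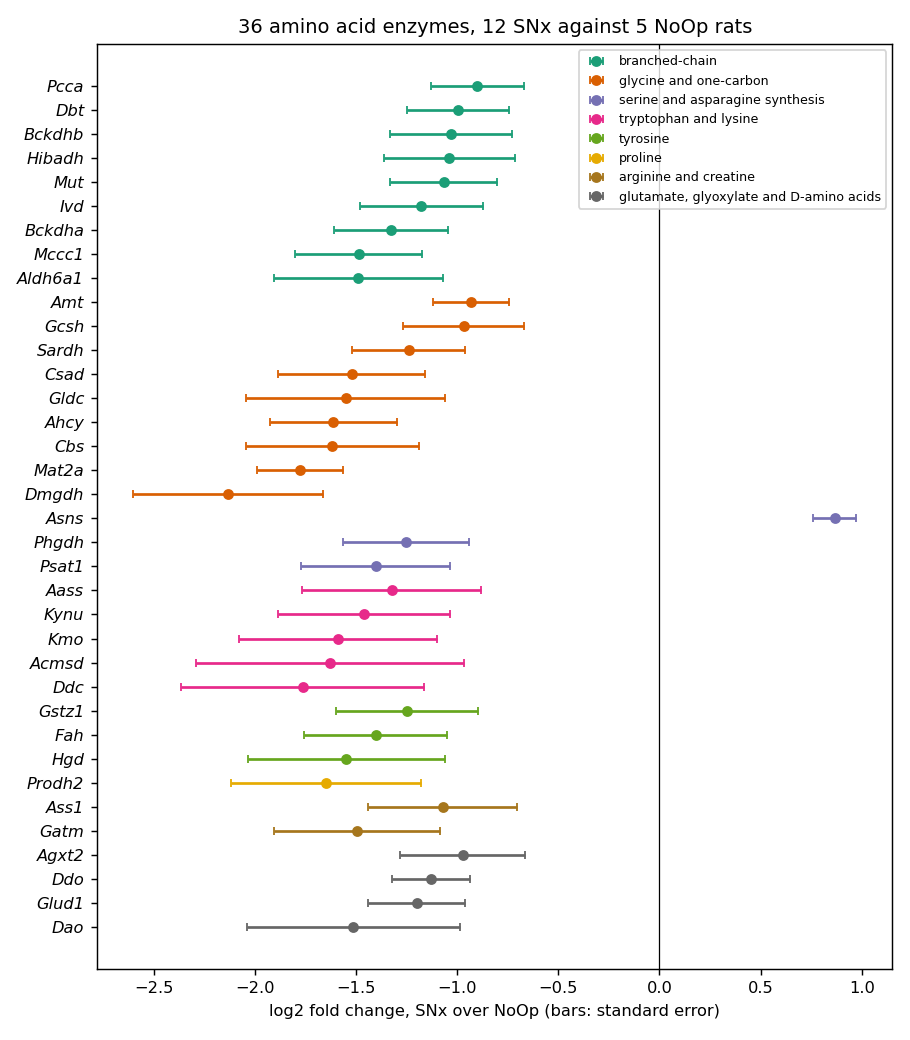
Log2 fold change of each of the 36 enzymes, 12 SNx against 5 NoOp rats (horizontal axis), with genes on the vertical axis coloured by route and bars for the standard error. Asns lies at 0.87, right of 0, and the other 35 lie between -2.13 and -0.90.

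Members were paired with upstream sequence through RefSeq's promoter table (assembly GRCr8, a different build from the rn6 reference of the counts). Of the 36, 33 matched, 1 of them (Mut) by an older symbol, and Acmsd, Bckdha and Dmgdh did not. The 250 bases before each annotated start were searched on both strands for 3 motifs with no mismatch, of the liver and kidney factor HNF4 and of the stress and cAMP responsive ATF and CREB factors. The HNF4 letters CAAAGTCCA occurred in 2 matched members (Kmo and Agxt2), and in 0.338% of the 33469 promoters of the table. Neither TGATGNAA, the composite site of ATF4 and C/EBP (3.4% of all promoters), nor the cAMP response element TGACGTCA (1.59%) occurred in a matched member. The motifs do not overlap one another in the windows printed here. A match describes letters and does not show a bound site. The 2 windows with a match and that of Asns, the 1 member that rose, are shown with the matched letters in capitals, 5′ to 3′ on the strand of the gene.
Kmo, GRCr8 chr13:90089271-90089520, plus strand: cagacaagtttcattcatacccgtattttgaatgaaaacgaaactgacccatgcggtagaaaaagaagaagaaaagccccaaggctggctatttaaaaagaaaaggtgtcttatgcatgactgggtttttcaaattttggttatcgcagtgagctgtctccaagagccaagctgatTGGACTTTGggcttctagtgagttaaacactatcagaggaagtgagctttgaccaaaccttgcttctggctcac
Agxt2, GRCr8 chr2:61063166-61063415, plus strand: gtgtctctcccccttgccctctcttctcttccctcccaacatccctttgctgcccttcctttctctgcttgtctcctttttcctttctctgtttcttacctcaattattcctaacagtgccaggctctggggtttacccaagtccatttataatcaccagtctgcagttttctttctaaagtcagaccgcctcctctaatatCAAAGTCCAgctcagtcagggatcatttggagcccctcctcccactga
Asns, GRCr8 chr4:36769416-36769665, minus strand: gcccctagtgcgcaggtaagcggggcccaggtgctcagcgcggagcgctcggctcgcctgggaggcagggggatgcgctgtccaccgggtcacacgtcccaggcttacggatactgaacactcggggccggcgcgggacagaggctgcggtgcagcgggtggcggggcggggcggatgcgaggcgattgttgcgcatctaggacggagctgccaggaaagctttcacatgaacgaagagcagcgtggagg
The match began at position -74 from the start in Kmo, where it was read on the opposite strand, and at -48 in Agxt2. The window of Asns held none of the 3.

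Leucine, isoleucine and valine are broken down in mitochondria, and 9 of the 13 enzymes named for this route were found. All were lower in SNx, with a median log2 fold change of -1.07. Of the branched-chain keto acid dehydrogenase, which commits all 3 carbon skeletons to oxidation, the E1 alpha subunit gene Bckdha changed by -1.33 ± 0.28 (log2, standard error), the E1 beta gene Bckdhb by -1.03 and the E2 core gene Dbt by -0.996. Bckdha stood at 8.43, 8.75, 8.67, 8.81 and 8.93 log2 CPM in the 5 NoOp libraries and at 5.92, 7.33 and 8.23 (lowest, median and highest) in the 12 SNx libraries. The groups did not overlap. Bckdha was further below its NoOp mean than Bckdhb in 11 of 12 SNx libraries and than Dbt in 12 of 12, by a median of 0.31 and 0.33. In the leucine branch, the isovaleryl-CoA dehydrogenase gene Ivd changed by -1.18 and Mccc1, the alpha subunit of methylcrotonyl-CoA carboxylase, by -1.49 ± 0.31. Mccc1 levels were 7.92, 8.15, 8.19, 8.26 and 8.45 in NoOp and 5.02, 6.66 and 7.65 in SNx, again apart. For the valine branch, Hibadh (3-hydroxyisobutyrate dehydrogenase) changed by -1.04 and Aldh6a1 (methylmalonate semialdehyde dehydrogenase) by -1.49 ± 0.42. Aldh6a1 was the most uneven of the route, with 10.45, 10.52, 10.37, 10.52 and 10.17 in NoOp and 6.26, 8.91 and 9.95 in SNx. Of the enzymes that take propionyl-CoA into the citric acid cycle, Pcca (propionyl-CoA carboxylase, alpha subunit) had the smallest change of the route, -0.90, and Mut (methylmalonyl-CoA mutase) changed by -1.07.

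Glycine, choline-derived methyl groups and sulfur amino acids are linked through one-carbon metabolism, of which 9 of 13 named enzymes were found, all lower, with a median of -1.55. Dmgdh (ENSRNOG00000023588), the mitochondrial dimethylglycine dehydrogenase of choline breakdown, had the lowest fold change of the 36, -2.13 ± 0.47, which is 22.8% of the NoOp level. Its NoOp libraries stood at 8.42, 8.66, 8.81, 8.63 and 8.41 and its SNx libraries at 3.50, 6.46 and 7.69. The SNx libraries spread over 4.19 log2 units, all below the control range. Sardh, which acts on the next intermediate sarcosine, changed by -1.24 and was nearer to its NoOp mean than Dmgdh in all 12 SNx libraries, by 0.57 to 2.53.

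In the methionine cycle, Mat2a (ENSRNOG00000013520), a catalytic subunit of the enzyme that makes the methyl donor S-adenosylmethionine, changed by -1.78 ± 0.21, to 29.2% of NoOp. Its NoOp values were 9.95, 9.80, 9.97, 9.58 and 9.49, and its SNx values 7.02, 7.98 and 8.59. Mat2a was less spread than the median member: its SD among SNx rats was 0.52, where the median over members was 0.87. Its SD among NoOp rats was 0.21, and among the lower enzymes Amt and Ddo had smaller SDs in SNx, both 0.45. In the 2 SNx libraries nearest to the controls, SNx 4 and SNx 11, Mat2a was the furthest of all 35 below its NoOp mean, at -1.36 and -1.29, followed by Dmgdh at -0.99 and -0.90. In SNx 1 it was not, at -2.60 against a median of -3.18 for the 35. Ahcy, which clears S-adenosylhomocysteine, changed by -1.61, Cbs (cystathionine beta-synthase, the entry from homocysteine to cysteine) by -1.62 ± 0.43, and Csad, which makes the taurine precursor hypotaurine, by -1.52. Cbs stood at 8.33, 8.57, 8.33, 8.57 and 8.34 in NoOp and at 3.84, 6.89 and 7.80 in SNx. Mat2a was further below its NoOp mean than Cbs in 7 of 12 SNx libraries and nearer in the other 5 (SNx 1, 2, 5, 8 and 10).

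The glycine cleavage system splits glycine into carbon dioxide, ammonia and a one-carbon unit. Its decarboxylating P protein gene Gldc changed by -1.55, while the T protein gene Amt changed by -0.93 and the H protein gene Gcsh by -0.97. Gldc was further below its NoOp mean than Amt in 12 of 12 SNx libraries, by a median of 1.05 log2 units, and than Gcsh in 11 of 12, by a median of 0.87. The SNx libraries spanned 3.57 log2 units for Gldc, 2.65 for Gcsh and 1.43 for Amt.

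**Figure D2:**
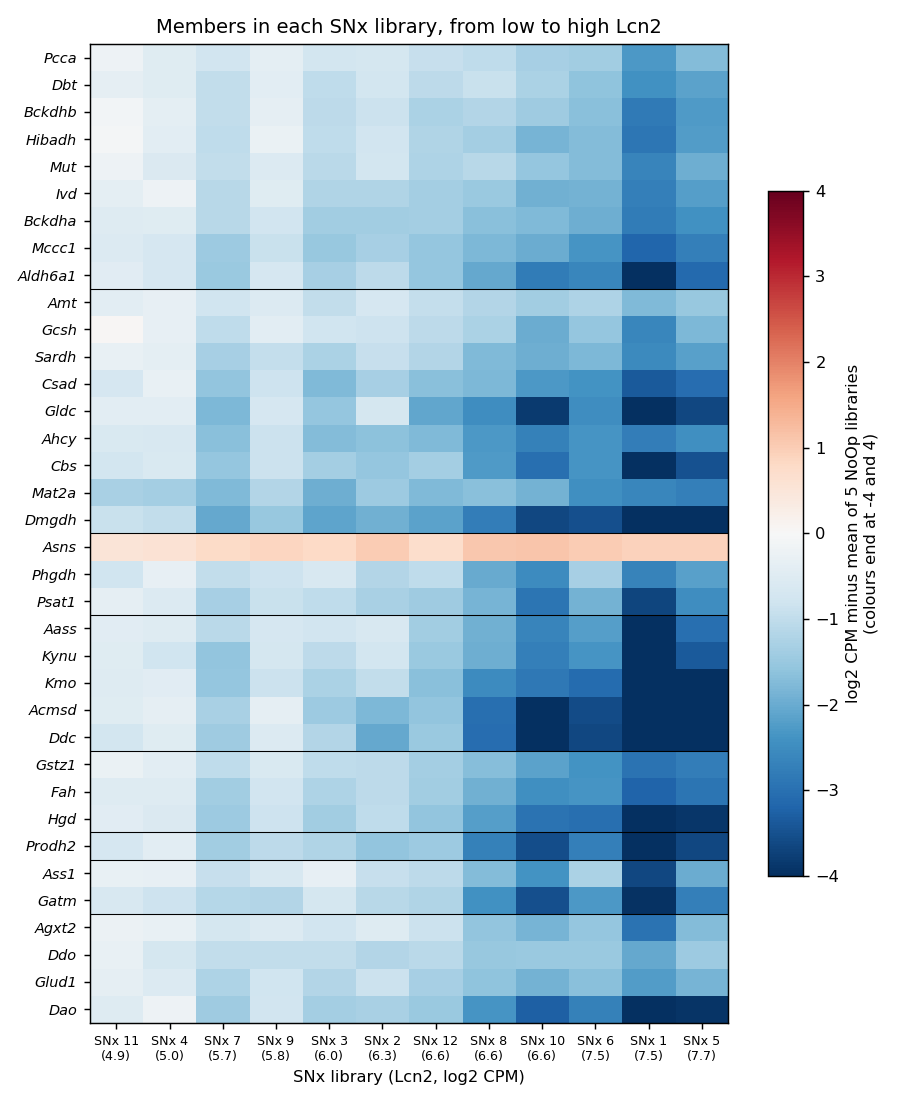
Each of the 36 enzymes (rows, by route between black lines) in each of the 12 SNx libraries (columns, from low to high Lcn2), as log2 CPM minus the mean of the 5 NoOp libraries. SNx 1 holds the lowest value of 34 rows, SNx 4 or SNx 11 the highest value of 33, and the row of Asns is above 0 in all 12.

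Serine and asparagine synthesis held the exception. Asns (ENSRNOG00000007546), which makes asparagine from aspartate and glutamine and is known as a target of the amino acid response, rose by 0.87 ± 0.11, a ratio of 1.82. The NoOp libraries stood at 2.90, 3.08, 2.95, 2.65 and 2.85, and the SNx libraries at 3.42, 3.77 and 3.99. Its lowest SNx library (SNx 11) was above its highest NoOp library, and its SD was 0.19 in SNx and 0.16 in NoOp. With library size in place of TMM scaling the rise was 1.07, more than 1 SD of its SNx libraries away. The other 2 enzymes of the group went down. Phgdh, the first step of serine synthesis from glycolysis, changed by -1.25 ± 0.31, with 6.16, 6.49, 5.56, 6.68 and 5.98 in NoOp and 3.51, 5.07 and 5.83 in SNx, where the ranges overlapped. Psat1, the next step, changed by -1.402 ± 0.37, from 7.65, 7.75, 7.38, 7.84 and 7.18 to 3.90, 6.18 and 7.20, also with overlap. Phgdh was the further below its NoOp mean of the pair in only 2 of 12 libraries.

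**Figure D3:**
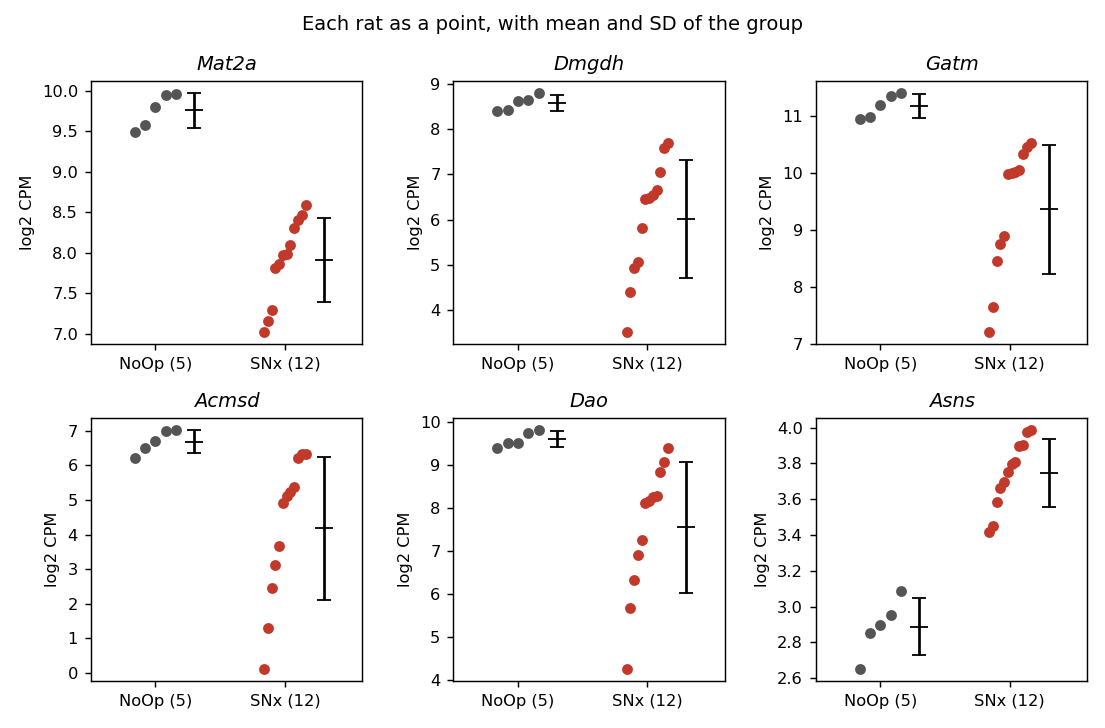
Log2 CPM of 6 enzymes in 5 NoOp rats (grey) and 12 SNx rats (red), each rat a point, sorted within its group, with the mean and SD beside them. Mat2a is lower with an SD of 0.52 in SNx, Acmsd and Dao span 6.23 and 5.14 log2 units in SNx, and Asns is higher in all 12.

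Tryptophan is broken down through kynurenine, and lysine through saccharopine. In this group 5 of 8 named enzymes were found, all lower, with a median of -1.59. By these fold changes it was the second lowest of the 8 routes after proline, which held 1 gene, Prodh2. That order depends on the fit. On the deposited log2 values Kmo, the median gene of the group, changed by -2.06 and Prodh2 by -1.97. Ddc, the aromatic amino acid decarboxylase with which the proximal tubule makes dopamine, changed by -1.76 ± 0.60. It stood at 6.54, 6.61, 5.55, 6.56 and 5.57 in NoOp and at 1.03, 4.40 and 5.69 in SNx. Acmsd (ENSRNOG00000003884), which turns the pathway away from NAD synthesis, changed by -1.63 ± 0.66. Its NoOp values were 6.70, 6.998, 6.22, 7.03 and 6.50, and SNx gave 0.11, 5.01 and 6.34. This was the widest spread of the 36, with an SD of 2.06 in SNx. In 3 SNx libraries it lay inside the NoOp range, and SNx 1 held 21 counts of Acmsd, so that its value there is the least precise of all. Upstream in the pathway, Kmo (kynurenine 3-monooxygenase) changed by -1.59 and Kynu (kynureninase) by -1.46. Aass, which opens lysine breakdown, changed by -1.32. Over the alternatives that kept all 12 SNx and 5 NoOp libraries or the lower range of sample numbers, the fold change of Acmsd lay between -2.48 and -1.45, and with 1 library left out between -1.82 and -1.51.

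Tyrosine breakdown gives fumarate and acetoacetate. The route had 4 named enzymes, of which 3 consecutive steps were found, all lower, homogentisate dioxygenase (Hgd), maleylacetoacetate isomerase (Gstz1) and fumarylacetoacetate hydrolase (Fah). Hgd changed by -1.55 ± 0.49, with 8.39, 8.60, 8.68, 8.49 and 8.51 in NoOp and 3.65, 7.02 and 8.08 in SNx. Fah changed by -1.403 ± 0.35, with 7.79, 8.03, 7.90, 8.05 and 7.83 in NoOp and 4.71, 6.52 and 7.41 in SNx. Neither overlapped between groups. Gstz1, the step between them, changed by -1.25, and Hgd was further below its NoOp mean than Gstz1 in 11 of 12 SNx libraries. Of the proline route only Prodh2, the hydroxyproline dehydrogenase, was found of 5. It changed by -1.65 ± 0.47, from 6.88, 7.20, 6.54, 6.97 and 6.73 to 2.35, 5.34 and 6.44, without overlap.

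Gatm (ENSRNOG00000000168) makes guanidinoacetate, the precursor of creatine, from arginine and glycine, and Ass1 works in arginine synthesis from citrulline, a known function of the proximal tubule. Gatm changed by -1.49 ± 0.41, with 11.18, 11.35, 10.95, 11.40 and 10.97 in NoOp and 7.20, 9.99 and 10.52 in SNx. Ass1 changed by -1.07 ± 0.37, with 9.71, 9.91, 9.24, 9.91 and 9.22 in NoOp and 5.97, 8.62 and 9.31 in SNx. For Gatm the groups were apart, while 3 SNx libraries of Ass1 reached into the NoOp range. Gatm was further below its NoOp mean than Ass1 in all 12 SNx libraries, by 0.17 to 1.13.

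The last group handles nitrogen and D-amino acids. Glud1, the mitochondrial glutamate dehydrogenase that releases ammonia, changed by -1.20 ± 0.24, from 9.59, 9.80, 9.87, 9.93 and 9.97 to 7.61, 8.55 and 9.47, with no overlap and an SD of 0.58 in SNx. Dao, the peroxisomal D-amino acid oxidase, changed by -1.51 ± 0.53, from 9.51, 9.82, 9.52, 9.75 and 9.40 to 4.26, 8.14 and 9.40. Of Dao, 1 SNx library reached the NoOp range. The 2 oxidases of this group were unlike in spread. Dao ranged over 5.14 log2 units in SNx and Ddo, the D-aspartate oxidase (-1.13), over 1.74. In SNx 4 Dao was the member nearest to its NoOp mean, at -0.20, and in SNx 1 it was at -5.34. Agxt2, a mitochondrial aminotransferase of glyoxylate and dimethylarginines, changed by -0.97.

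Across the 12 SNx rats the 35 lower enzymes moved as a block. SNx 1 was the lowest SNx library for 34 of them (Mat2a was lowest in SNx 5), as it was for 59.9% of the 4277 genes called lower. SNx 4 or SNx 11 was the highest for 33 of 35, against 70.2% of those genes. The median difference from the NoOp mean over the 35 was lowest in SNx 1 (-3.18), followed by SNx 5 (-2.72), SNx 10 (-2.39) and SNx 6 (-2.28), and highest in SNx 4 (-0.48) and SNx 11 (-0.46). In SNx 4 and SNx 11, 9 and 8 of the 35 reached the NoOp range, while in SNx 1 none did. The proximal tubule markers took much the same order, with medians from -4.14 in SNx 1 to -0.54 in SNx 4. How far the level of the enzymes follows from that of these cells was not tested. All 36 members had a larger SD in SNx than in NoOp, with medians of 0.87 and 0.18, where all genes had 0.29 and 0.17 and 89.5% of the genes called lower had the larger SD in SNx. Pearson's r between 2 lower enzymes across the 12 libraries had a median of 0.95 over 595 pairs, with 0.64 the lowest, and a median of 0.94 without SNx 1. These pairs share libraries and depth, no such pairs were taken from other genes, and the values are given as a description.

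**Figure D4:**
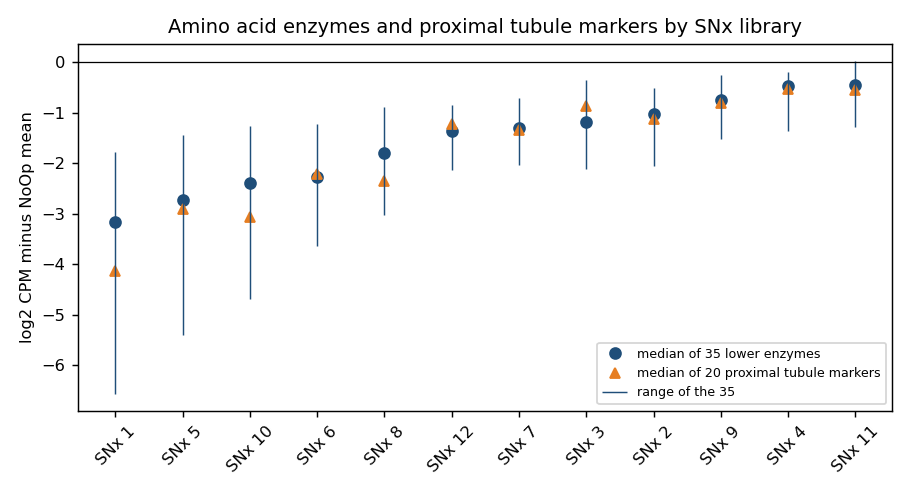
Log2 CPM minus the NoOp mean (vertical axis) in the 12 SNx libraries, ordered by the median of the 35 lower enzymes (circles, with a line for their range), and the median of 20 proximal tubule markers (triangles). Both run from SNx 1 (-3.18 and -4.14) to SNx 4 and SNx 11, where the circles are at -0.48 and -0.46.

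To ask how the members varied among operated rats, the controls were left out. The counts of the 12 SNx libraries were tested for a slope on the log2 CPM of Lcn2, a gene of injured tubules that is no member. SNx rats of study 2, like the controls, took part in the choice of the 8 members paired through its list, Gstz1 among them. The slopes are therefore not independent of that choice. Lcn2 ranged from 4.94 (SNx 11) to 7.70 (SNx 5) and was picked with its values known. Of the 36 enzymes, 35 had a negative slope at FDR < 0.05 and Asns a positive one (edgeR's quasi-likelihood test, adjusted over 15438 genes). The background was 22.8% of all genes with a negative and 22.1% with a positive slope, 38.7% and 36.0% among genes with a symbol, and 62.6% with a negative slope among the genes called lower in SNx. The median slope of the members was -0.79 log2 units per log2 unit of Lcn2, against 0.01 over all genes. It was steepest for Acmsd (-1.78 ± 0.31, adjusted p = 0.0008 in edgeR) and shallowest among the lower enzymes for Ddo (-0.42 ± 0.07, adjusted p = 0.00079), and 12 enzymes were below -1.

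The 5 enzymes of smallest p by edgeR were Gstz1 (-0.93 ± 0.09, adjusted p = 5e-05), Mccc1 (-0.80 ± 0.08, adjusted p = 7.6e-05), Bckdha (-0.71 ± 0.07, adjusted p = 7.6e-05), Ivd (-0.75 ± 0.09, adjusted p = 0.00011) and Csad (-0.91 ± 0.11, adjusted p = 0.00013). Of these, 3 belong to branched-chain breakdown, the route of 9 of the 36 members. Its median slope was -0.74, while those of the other routes ran from -1.31 (tryptophan and lysine) to -0.59 (serine and asparagine synthesis). Asns had a slope of 0.16 ± 0.05 (adjusted p = 0.031 in edgeR). Of 39 correlations with Lcn2 that were computed, Gstz1 gave r = -0.95 and rho = -0.99 over the 12 libraries (permutation tests, both with p = 1e-05, the smallest that the permutations can give, and adjusted p 0.00019 and 6.5e-05). Without the 2 libraries farthest from the median of Lcn2 its r was -0.94, and within the 2 ranges of sample numbers in the titles, 6 libraries each, it was -0.97 and -0.90. For Asns r was 0.69 and rho 0.71 (permutation tests, p = 0.014 and 0.013, adjusted p 0.015 and 0.014), r fell to 0.35 without those 2 libraries (SNx 4 and SNx 11), and it was 0.77 and 0.76 within the ranges. The call of Asns on the slope was also lost when SNx 4, SNx 6, SNx 7 or SNx 11 was left out, with adjusted p (edgeR) between 0.053 and 0.13.

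Depth moved with Lcn2. Total counts gave r = -0.60 and rho = -0.60 with it over the 12 SNx libraries (permutation tests, p = 0.04 and 0.042, adjusted p 0.041 and 0.043), r = -0.77 without the 2 farthest, and r = -0.87 and -0.27 within the ranges of sample numbers. The TMM factor gave r = 0.62 with Lcn2 (permutation test, p = 0.03, adjusted p 0.032), 0.24 without the 2 farthest, and 0.92 and 0.45 within the ranges. By library size alone, without TMM scaling, 35 enzymes had a negative slope at FDR < 0.05. With the log2 total as a second term in the edgeR fit, 32 of 35 enzymes still had a negative slope at FDR < 0.05, of 3182 genes called in all, and the median slope of the members was -0.66. Phgdh (-0.37 ± 0.16, adjusted p = 0.13), Gatm (-0.61 ± 0.21, adjusted p = 0.056) and Ass1 (-0.50 ± 0.20, adjusted p = 0.094) were not called in that fit. Nor was Asns, whose slope of 0.15 ± 0.07 (adjusted p = 0.14) was as large as without the term, with a wider error. Without SNx 4 and SNx 11, 33 were called and the median slope was -0.84. Phgdh (-0.64) and Ass1 (-0.77) kept their slopes without a call, while that of Asns was 0.08. With Col3a1, a gene of fibrous matrix, in place of Lcn2, 415 genes were called and 0 of the 36 members, of which 3 had an unadjusted p under 0.05. The slopes on Col3a1 were negative in all 36, with a median of -0.65 log2 units per log2 unit of Col3a1, and their errors were wider. The slope of Mccc1 on Col3a1 was -0.66 ± 0.34 (adjusted p = 0.33 in edgeR) and that of Csad -0.79 ± 0.385 (adjusted p = 0.31). Between Col3a1 and Lcn2 r was 0.31 over the 12 SNx libraries (permutation test, p = 0.33, adjusted p 0.33), and -0.02 without SNx 1. SNx 1 had the highest Col3a1, 11.52 against at most 10.05 in the other SNx libraries, and the lowest value of 34 members. No fit on Col3a1 left SNx 1 out, so how far these slopes rest on that library was not tested.

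**Figure D5:**
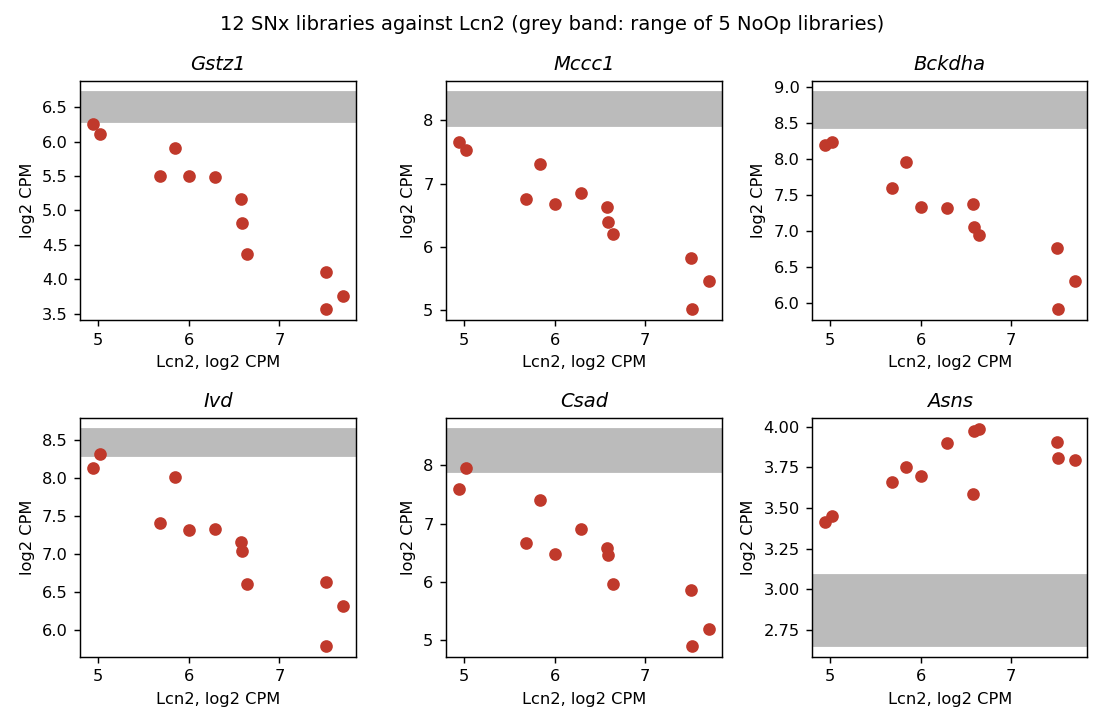
Log2 CPM of 6 enzymes (vertical axes) against log2 CPM of Lcn2 (horizontal axes) in the 12 SNx libraries, with the range of the 5 NoOp libraries as a grey band. Gstz1, Mccc1, Bckdha, Ivd and Csad fall as Lcn2 rises, with slopes from -0.93 to -0.71, and Asns lies above its band throughout.

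Other enzymes of the same pathways were taken from a list of 65 genes that are no members. Of the 45 with an identifier, 41 were lower in SNx, 3 higher and 1 (Ddah2) not called. The largest changes were those of Aspdh (an aspartate dehydrogenase family gene, -1.93), Ppm1k (the phosphatase that activates the branched-chain keto acid dehydrogenase, -1.80), Bhmt2 (a homocysteine methyltransferase, -1.77) and Odc1 (ornithine decarboxylase of polyamine synthesis, -1.71). A negative slope on Lcn2 was called in 41 of the 45 and a positive one in 2, Bcat1 (0.59 ± 0.11) and Mthfd1l (0.40 ± 0.08), beside the 38.7% and 36.0% of genes with a symbol given above. The 3 that were higher, Bcat1 (cytosolic branched-chain aminotransferase, 1.69), Mthfd1l (1.59) and Mthfd2 (1.54, both of mitochondrial folate metabolism), stood at low levels, with NoOp medians of 1.73, 2.30 and 1.01 log2 CPM. Of 24 amino acid transporters, 15 had an identifier, 11 were lower and 4 higher. The lower ones held Slc3a1 (of the cystine and dibasic amino acid carrier, -1.73), Slc6a18 (a neutral amino acid carrier of the brush border, -1.65) and Slc25a21 (a mitochondrial oxodicarboxylate carrier, -1.46). The cystine carrier Slc7a11 had at most 2 counts in any NoOp library and at least 20 in every SNx library. Of 14 transcription factors, 7 had an identifier, 4 lower and 3 higher. Klf15 (-1.57) and Hnf4g (-1.47) were lower, and the stress and growth responsive Atf3 (2.63) and Myc (2.33) were higher. Hnf4a (-1.37), the factor of a motif searched above, was lower. It, Slc2a2, Ddah2 and the 3 enzymes that were higher were named after their values were seen. Since a symbol was available only for genes in the study's lists, these counts describe listed genes and not the whole of each list.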

How the data were processed

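Kidney RNA of 12 SNx and 5 NoOp rats was analysed, 1 library per rat. The authors quantified transcripts against the Rn6 transcriptome with a selective alignment index (the submitters' processing notes name Salmon and limma, without versions) and summarised them with tximport. The authors deposited estimated counts per gene, made from the lengths and abundances of transcripts and here rounded to whole numbers. How far the rounding changed them was not established. For 13318 genes, voom-transformed log2 values were available too, and these were used in 1 alternative. All 34 columns of 2 joint tables equalled the per-library values, and these tables were left out.

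Counts were fitted in R 4.3.3 with edgeR 4.0.16 (filterByExpr, TMM, glmQLFit, glmQLFTest, two-sided, Benjamini-Hochberg adjustment over 15438 genes, FDR < 0.05). Log2 CPM used a prior count of 2. A fold change compares mean counts, and the gap between mean log2 CPM was wider in the 35 lower members and about the same in Asns (0.86 against 0.87). The order of members can differ between these measures. Mat2a was below Cbs by fold change (-1.78 and -1.62) and above it by the gap (-1.84 and -1.98). The standard error is the absolute fold change over the square root of its F statistic. Correlations used 100000 permutations, two-sided. The scripts were tested on simulated data. Alternatives used DESeq2 1.42.0, limma 3.58.1, other scalings and filters, and each library left out. Figures used Python 3.11.15 and matplotlib 3.10.9.

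The members, routes and lists were chosen with earlier results of these data known. Symbols came from the transcript lists of the supplement, whose fold changes and p-values were not used. All members were named. Values per library were given for each that rose and for the 3 members of largest absolute change in routes of 6 or more found, 2 in smaller ones. On the slope, the 5 of smallest p and any of opposite sign were named, and of other lists at most 4 of largest change. No 2 libraries agreed within counting noise (chi-square per degree of freedom at least 21.9). The printed p-values are of slopes and correlations over the SNx libraries, with the rat as the unit. An item of the lists is not reported here.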

Additional observations from a re-analysis of the deposited data

Results flagged for a closer look

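The NoOp values of the 36 enzymes were each examined for 1 library far from the other 4 with Dixon's criterion, which chance meets in about 1 in 20 groups, or 1.8 of 36. It was met once. Ddo, the D-aspartate oxidase, stood at 4.128 log2 CPM in NoOp 2 and at 3.773 to 3.846 in the other NoOp libraries. All 12 SNx libraries lay below those 4 as well.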

How the results depend on the processing

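The count of all genes called in SNx against NoOp was 8949, 7889 to 9436 with each library left out, and 7895 to 9447 in the other alternatives. The calls of members in this contrast are not compared, since it took part in their choice. Of 900 alternative fold changes of members, none changed sign and 899 moved by less than 1 SD of the SNx libraries. The other was Asns with library size alone, and the SD of Asns was the smallest, at 0.19. This SD is a loose measure for most members, with a median of 0.87. For Acmsd it was 2.06, so that its move from -1.63 to -2.48 was within it. On the Lcn2 slope 6929 genes were called, with Col3a1 in place of Lcn2 415, without the 2 libraries farthest from the median of Lcn2 3661, and with the log2 total count as a second term, chosen after seeing the data, 3182. The count of enzymes called with a negative slope was 35 and fell to 0 with Col3a1, where the slopes stayed negative with wider errors, and the count with a positive slope fell from 1 to 0 in all 3. With 1 SNx library left out it was 0 to 1. The slope of Asns was -0.014 on Col3a1. No fit on Col3a1 left out SNx 1, which stood far above the other SNx libraries in that gene. The cause of the differences between these fits was not tested. No paired analysis was possible because the replicate numbers follow the order of samples and mark no shared animal or batch. The lowest count of an enzyme in a library was 21 (Acmsd in SNx 1), so depth limits that value most.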
